A study of Mus musculus with 16 samples.

Results

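The proteasome genes of mouse brown adipose tissue (BAT) were followed across sex and genotype. Members were all non-pseudogene symbols of the form *Psma* to *Psmg* followed by a digit in the GENCODE mouse annotation, which gave 50 genes of 49066 gene symbols, after 4 pseudogenes were left out. They comprised 7 alpha-ring and 7 beta-ring genes of the core particle, 3 immunoproteasome genes (*Psmb8*, *Psmb9* and *Psmb10*), 6 ATPase and 11 non-ATPase genes of the regulatory particle, 7 assembly genes, and 6 activator or inhibitor genes. The remaining members were the tissue-restricted core genes *Psma8* and *Psmb11*, and *Psmc3ip*, which carries the letters of the rule in its name but encodes a meiotic recombination protein and no subunit. All libraries came from BAT of C57BL6/J mice that were 18 weeks old and had eaten a high-fat diet (HFD) for 12 weeks. All mice carried floxed alleles of *Gdf15* (*Gdf15* fl/fl), the gene of a stress-induced cytokine. WT mice lacked Cre, and KO mice expressed Cre from the *Ucp1* promoter, so that deletion was directed to thermogenic adipocytes and other cells of the tissue kept the gene. Because WT mice carried no Cre, the deletion and the Cre transgene cannot be told apart. Each combination of sex and genotype was represented by 4 mice, and each mouse gave 1 library. Each sex was compared within itself, which addressed the question of whether loss of *Gdf15* in thermogenic adipocytes went with different proteasome transcript levels in males and in females.

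The proteasome degrades proteins tagged with ubiquitin. Its core particle is a barrel of alpha and beta rings, in which *Psmb5*, *Psmb6* and *Psmb7* encode the constitutive catalytic subunits. In immune cells, and in other cells exposed to interferon, *Psmb8*, *Psmb9* and *Psmb10* encode subunits that take their places and form the immunoproteasome. The regulatory particle binds, unfolds and feeds in substrates, whereas PA28 (*Psme1*, *Psme2*, *Psme3*) and PA200 (*Psme4*) are alternative caps. In brown fat the transcription factor NFE2L1 is known to maintain proteasome gene expression during thermogenesis.

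Values were TPM (transcripts per 1000000 transcripts), the authors' share of each library per unit of transcript length, and so can be compared between genes. Depth was not known from TPM, and precision was judged from the spread between mice alone. *Gdf15* was at 0.368, 0.690, 1.55 and 3.81 TPM in male WT and between 0.0801 and 0.272 TPM in male KO mice, without overlap (two-sided exact permutation test, p = 0.0286, the lower limit of this test with groups of 4). In females *Gdf15* was lower still, at 0.0622 to 0.311 TPM in WT and 0 to 0.0794 TPM in KO mice, and the groups overlapped (exact permutation test, p = 0.0571). The brown adipocyte marker *Ucp1* averaged 2915 to 3755 TPM in the 4 groups. Mitochondrially encoded transcripts made up 34.5 to 59.8% of a library, and in female WT 4 a single transcript without a gene match took 16.5%. The summed TPM of the members ranged from 1597 to 2790 per library, a 1.75-fold range that narrowed to 1.44-fold after median-of-ratios scaling, which equalises the typical gene between libraries. Fold changes below are differences of mean log2(TPM + 0.5), tested with limma. Because TPM are shares, fold changes are to be read against the median over all genes tested, which was 0.16 for KO against WT in males and 0.10 in females.

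Core genes were the most abundant and the immunoproteasome and assembly genes the least. Averaged over the 16 mice, alpha-ring genes lay between 27.2 TPM (*Psma5*) and 92.2 TPM (*Psma6*), and beta-ring genes between 43.9 TPM (*Psmb1*) and 117 TPM (*Psmb3*). The ATPases of the regulatory particle ranged from 25.1 TPM (*Psmc2*) to 53.3 TPM (*Psmc3*). Its non-ATPase genes ranged from 24.96 TPM (*Psmd1*, a large scaffold) to 130 TPM (*Psmd8*). Assembly genes, whose products chaperone the rings and the base, reached from 7.46 TPM (*Psmd10*) to 19.1 TPM (*Psmg1*). The immunoproteasome genes were at 8.36 TPM (*Psmb9*), 13.4 TPM (*Psmb8*) and 28.9 TPM (*Psmb10*). *Psme2*, the PA28 beta gene, had the highest mean of all members (137 TPM), above its partner *Psme1* (55.6 TPM). *Psme2* and *Psmd8*, the next in order at 130 TPM, overlapped between mice. With protein-coding transcripts alone *Psme2* averaged 76.1 TPM and *Psmd8* 121 TPM, so that *Psme2* was no longer the highest. The PA200 gene *Psme4* averaged 14.2 TPM and *Psmf1*, the gene of the inhibitor PI31, 8.26 TPM. *Psma8*, the testis alpha subunit, and *Psmb11*, the thymus beta subunit, stayed at or below 0.352 and 0.04996 TPM in every mouse. *Psme2b* averaged 0.941 TPM, and as a close copy of *Psme2* its reads may have been split between both genes. At 1 TPM or more on average over all mice there were 47 members.

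**Figure D1:**
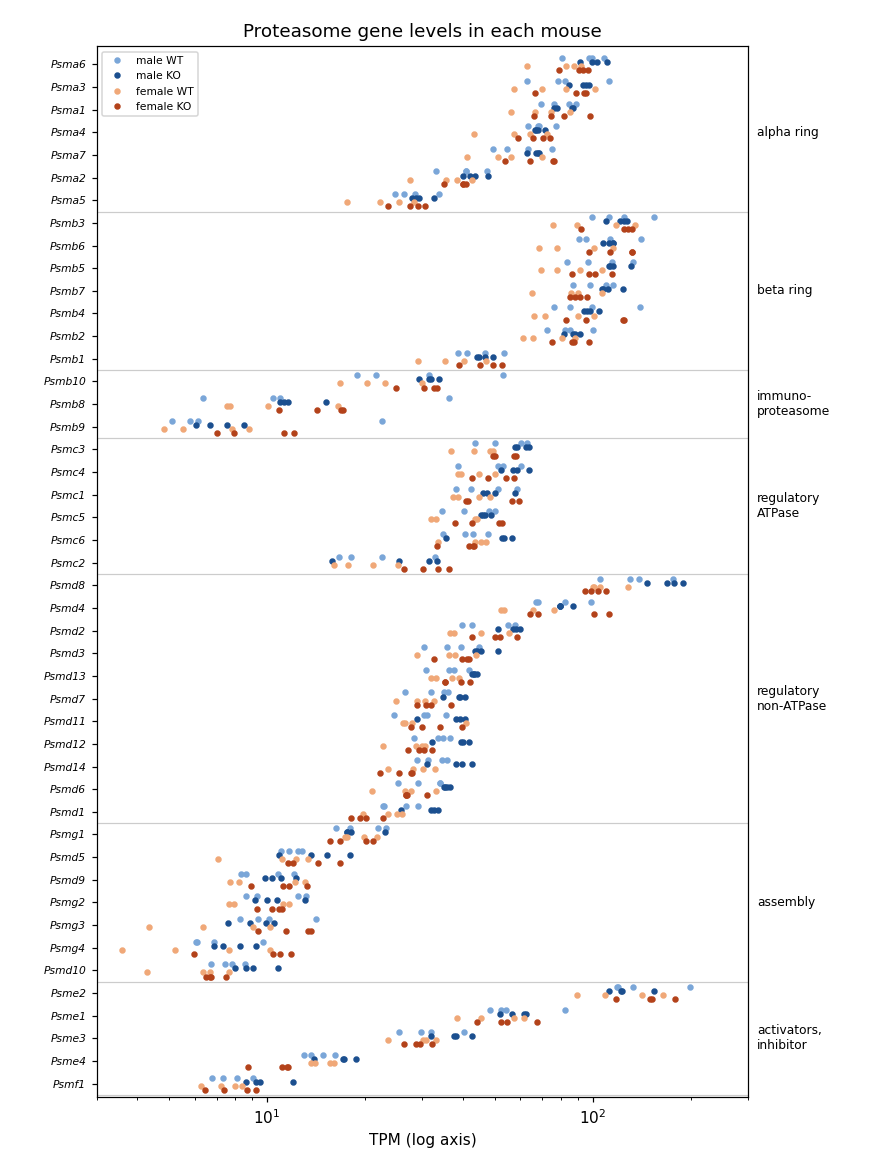
TPM of 46 proteasome genes in each of the 16 mice on a log axis, grouped by class and ordered by mean level within a class; each point is 1 mouse, coloured by sex and genotype, and *Psme2b*, *Psma8*, *Psmb11* and *Psmc3ip* are not drawn. Core genes average 27.2 to 117 TPM and assembly genes 7.46 to 19.1 TPM, and among *Psmb8*, *Psmb9* and *Psmb10* a single male WT mouse stands far to the right.

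Members differed in how evenly they were expressed. After median-of-ratios scaling, the coefficient of variation over the 16 mice was 5.43% for *Psmd13*, a lid gene, 7.26% for *Psma2* and 7.61% for *Psmd3*. It was 46.6% for *Psmb8*, 46.4% for *Psmb9* and 23.8% for *Psmb10*. The median was 9.86% over the 14 constitutive core genes and 10.1% over the 17 regulatory particle genes, so that the immunoproteasome genes varied more between mice than any constitutive core gene, of which the highest was at 15.1%. Among regulatory particle genes *Psmc2* varied most (26.7%).

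Much of the TPM of some members came from transcripts that are not annotated as coding. For 30 of the 47 members at 1 TPM or more, at least 90% of the TPM belonged to protein-coding transcripts. For 6 members this was under 50%, and these were *Psmb4* (42.4%), *Psma3* (41.7%), *Psmc6* (39.1%), *Psmb10* (23.6%), *Psmb8* (38.6%) and *Psmb9* (49.1%). All 3 immunoproteasome genes were therefore in this group. A single retained-intron transcript held 50.2% of the *Psmb8* TPM, and a single processed transcript held 42.1% of that of *Psmb10*. Restriction to coding transcripts was an alternative chosen after the data were seen.

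The immunoproteasome genes were dominated by a single mouse in males. *Psmb8*, which replaces *Psmb5*, was at 6.37, 36.2, 10.4 and 10.97 TPM in male WT 1 to 4, and at 11.6, 15.2, 10.9 and 11.3 TPM in male KO 1 to 4. *Psmb9*, which replaces *Psmb6*, was at 5.80, 22.6, 6.14 and 5.11 TPM in male WT, and at 6.70, 8.52, 6.07 and 7.54 TPM in male KO mice. *Psmb10*, which replaces *Psmb7*, was at 18.9, 53.0, 21.5 and 31.4 TPM in male WT, and at 33.8, 31.8, 29.2 and 31.4 TPM in male KO mice. In each of the 3 genes male WT 2 was the highest of all 16 libraries, and without it no male WT mouse reached the highest male KO mouse. The fitted male differences were -0.08 ± 0.44 (SE) for *Psmb8*, -0.16 ± 0.41 for *Psmb9* and 0.13 ± 0.28 for *Psmb10*, with limma adjusted p of 0.933, 0.836 and 0.811. Without male WT 2 they were 0.41, 0.31 and 0.42 (limma adjusted p = 0.249, 0.204 and 0.194), against a median of 0.20 over all genes in that fit. This library thus set the direction for *Psmb8* and *Psmb9*. Because male WT 2 was the highest WT mouse in all 3 genes, leaving it out could only raise these differences.

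In females the 3 genes were higher in KO mice on average, with overlapping groups. *Psmb8* was at 16.6, 7.53, 10.1 and 7.71 TPM in female WT 1 to 4, and at 17.1, 16.9, 10.9 and 14.2 TPM in female KO 1 to 4. *Psmb9* was at 8.82, 4.82, 7.82 and 5.53 TPM in female WT, and at 11.3, 12.1, 7.04 and 7.93 TPM in female KO mice. *Psmb10* was at 29.9, 20.3, 22.95 and 16.7 TPM in female WT, and at 33.3, 30.4, 24.9 and 32.6 TPM in female KO mice. For *Psmb10* a single WT mouse, female WT 1, exceeded the lowest KO value, and for *Psmb8* the same mouse was within the KO range. The differences were 0.53 ± 0.25, 0.48 ± 0.23 and 0.44 ± 0.19 on the log2 scale, against a median of 0.10 over all genes, and none passed the threshold (limma adjusted p = 0.319, 0.317 and 0.275). With coding transcripts alone they were 0.34, 0.75 and 0.19. Within the library-name prefix shared by female WT 2 to 4 and female KO 3, the mean log2 value of the 3 genes was 0.30 higher in the KO mouse. Within the prefix of female WT 1 and female KO 1 it was 0.18 higher. What these prefixes stand for is not given in the sources used here.

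**Figure D2:**
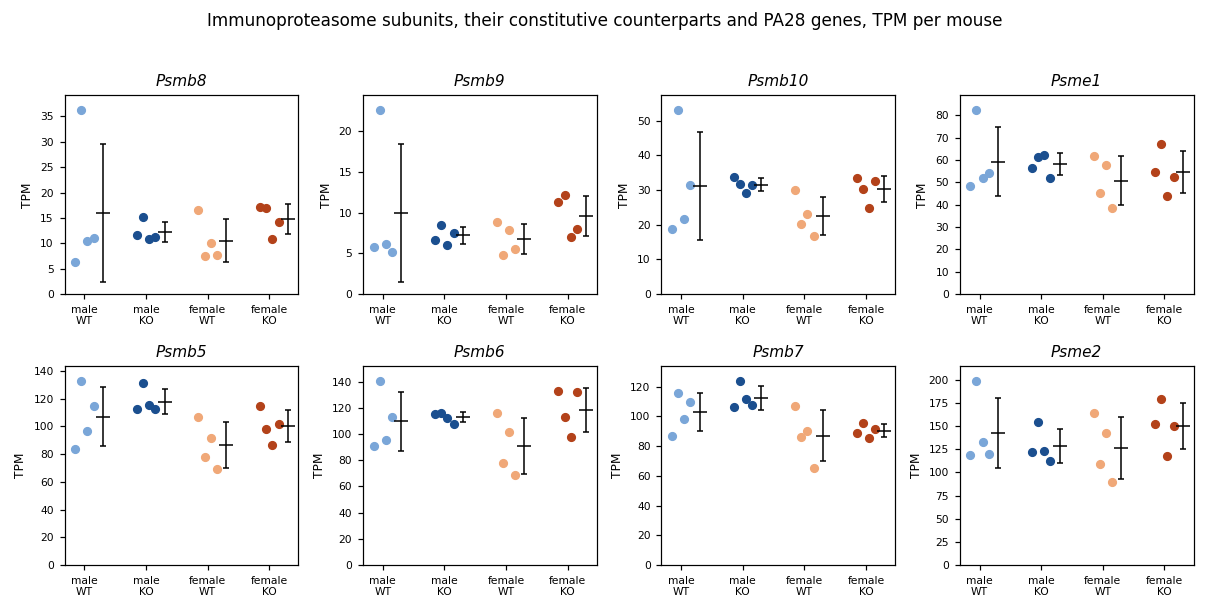
TPM of *Psmb8*, *Psmb9* and *Psmb10* above their constitutive counterparts *Psmb5*, *Psmb6* and *Psmb7*, with the PA28 genes *Psme1* and *Psme2* in the last column; points are mice and bars are the mean and SD of 4 mice, on linear axes from 0. Male WT 2 is the highest point of each upper panel, at 36.2, 22.6, 53.0 and 82.2 TPM.

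Ratios within a library do not depend on how libraries are scaled. *Psmb8* made up 11.7% ± 6.55 (SD, n = 4) of the summed TPM of *Psmb8* and *Psmb5* in WT and 9.39% ± 0.731 in KO males, and 10.55% ± 1.99 in WT and 12.8% ± 1.496 in KO females. *Psmb9* made up 7.56% ± 4.27 of its pair with *Psmb6* in WT and 6.01% ± 0.821 in KO males, and 6.89% ± 0.731 in WT and 7.49% ± 1.71 in KO females. The share of *Psmb10* in its pair with *Psmb7* was 22.4% ± 6.37 in WT and 21.9% ± 1.67 in KO males, and 20.5% ± 1.13 in WT and 25.1% ± 2.13 in KO females. Thus the constitutive subunit prevailed in every pair and group. For *Psmb10* every female KO mouse (22.6 to 27.4%) lay above every female WT mouse (19.2 to 21.9%), a difference in the log2 ratio of 0.38 (two-sided exact permutation test, p = 0.0286, adjusted p = 0.171 over the 6 tests of 3 pairs in 2 sexes). With coding transcripts alone that difference was 0.13 (exact p = 0.571), and the shares themselves were lower. *Psmb10* then made up 6.82% and 5.39% of its pair in WT and KO males and 6.49% and 7.03% in WT and KO females, and *Psmb8* made up 4.28 to 4.93% of its pair in the 4 groups. The other 5 tests gave exact p between 0.114 and 1.

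The constitutive partners were less variable. *Psmb5* was at 83.5, 133, 96.8 and 115 TPM in male WT and at 113, 131, 115 and 113 TPM in male KO mice. In females it was at 107, 77.8, 91.3 and 69.3 TPM in WT and at 115, 97.8, 86.5 and 102 TPM in KO mice. *Psmb6* was at 90.7, 140, 95.3 and 113 TPM in male WT and at 115, 116, 112 and 108 TPM in male KO mice. The groups overlapped for both genes in both sexes. *Psmb6* in females was at 116, 77.9, 101 and 68.4 TPM in WT and at 133, 113, 97.4 and 132 TPM in KO mice, a difference of 0.40 ± 0.20 (limma adjusted p = 0.322). *Psmb7* was at 86.8, 116, 98.4 and 110 TPM in male WT and at 107, 124, 111 and 108 TPM in male KO mice. In females *Psmb7* was at 107, 85.8, 89.9 and 65.2 TPM in WT and at 88.5, 95.8, 85.3 and 91.7 TPM in KO mice. Its female difference of 0.08 ± 0.16 and the male differences of 0.16 ± 0.15 (*Psmb5*), 0.06 ± 0.14 (*Psmb6*) and 0.14 ± 0.11 (*Psmb7*) lay within 1.5 SE of 0, as did the female difference of *Psmb5* (0.23 ± 0.17).

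The interferon-induced PA28 genes *Psme1* and *Psme2* were highest in the same male. *Psme1* was at 48.5, 82.2, 52.1 and 54.1 TPM in male WT and at 56.5, 61.4, 62.3 and 51.8 TPM in male KO mice. *Psme2* was at 119, 199, 133 and 119 TPM in male WT and at 122, 155, 123 and 113 TPM in male KO mice. Neither differed between the male genotypes beyond its SE (-0.0014 ± 0.17 and -0.13 ± 0.18). In females *Psme1* was at 61.8, 45.3, 57.5 and 38.4 TPM in WT and at 54.6, 67.3, 44.0 and 52.5 TPM in KO mice. *Psme2* was at 164, 109, 142 and 89.4 TPM in female WT and at 152, 179, 118 and 150 TPM in female KO mice. The female differences were 0.11 ± 0.19 and 0.27 ± 0.22, with limma adjusted p of 0.760 and 0.509. That of *Psme2* was 0.12 without female WT 4, 0.0056 with the library-name prefix as a covariate and 0.46 with coding transcripts.

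Upstream sequence was at hand for 42 of the 50 members, as RefSeq windows on GRCm38.p6. *Psmb9* is shown because it starts head to head with *Tap1*, which encodes a subunit of the transporter that carries proteasome products to class I molecules. The stretch between the starts of both genes, chr17:34187331-34187555, read on the minus strand towards *Psmb9*, holds 225 bases, and capitals mark the CCAAT pentamer as read on the other strand.

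Psmb9: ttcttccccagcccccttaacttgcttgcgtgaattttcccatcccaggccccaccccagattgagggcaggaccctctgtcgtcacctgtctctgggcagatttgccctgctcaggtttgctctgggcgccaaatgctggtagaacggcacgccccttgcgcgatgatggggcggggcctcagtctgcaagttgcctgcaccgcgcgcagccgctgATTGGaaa

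In males both genes of this pair were highest in male WT 2, where *Tap1* was at 12.4 TPM against 4.97 to 7.32 TPM in the other male mice, as the per-mouse values of *Psmb9* above also show. Among females *Tap1* was highest in female WT 1 (13.3 TPM), whose *Psmb9* level (8.82 TPM) was the third of 8. The constitutive partners *Psmb5* and *Psmb6* are shown because their windows hold TGACNNNGC, the core letters of antioxidant response elements, to which NFE2L1 is known to bind. Capitals mark it in the 60 bases before the start of *Psmb5* (chr14:54617996-54618055, minus strand) and of *Psmb6* (chr11:70525297-70525356, plus strand). The last line gives the 100 bases before the start of *Psmc2* (chr5:21785175-21785274, plus strand), the member with the smallest female p, with CCAAT in capitals.

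Psmb5: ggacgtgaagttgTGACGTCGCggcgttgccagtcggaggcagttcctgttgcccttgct
Psmb6: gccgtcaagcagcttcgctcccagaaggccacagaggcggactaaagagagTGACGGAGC
Psmc2: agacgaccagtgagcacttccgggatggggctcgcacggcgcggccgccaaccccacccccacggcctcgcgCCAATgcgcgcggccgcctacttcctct

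Searched on both strands of the whole windows, TGACNNNGC was found in 6 of the 42 members with a window (*Psmb5*, *Psmb6*, *Psmc6*, *Psmd12*, *Psmd9* and *Psme4*), or 14.3%, against 14% of the 27025 symbols with a window. CCAAT was found in 15 of 42 (35.7%, against 41.1% of all symbols), and in 5 of the 7 alpha-ring genes. The interferon-stimulated response element (ISRE), written as a pair of GAAA tetramers 2 bases apart, was found in 5 of 42 (11.9%, against 3.99%), namely *Psmb3*, *Psmd4*, *Psmd9*, *Psme1* and *Psmg4*, and in none of the 3 immunoproteasome windows. These matches describe letters and not sites.

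In male KO mice the non-ATPase genes of the regulatory particle had the highest class median relative to WT with all mice in the fit, and no single member passed the test. All 17 regulatory genes had a positive difference, as did 79.9% of all genes tested, with a median of 0.25 over the 11 non-ATPase genes and 0.19 over the 6 ATPases, against 0.16 over all genes tested. The medians were 0.07 for the alpha ring, 0.05 for the beta ring, -0.08 for the immunoproteasome, 0.13 for assembly genes and 0.21 for activators and inhibitor. Of 47 members tested, 0 passed an adjusted p of 0.05 with limma, where 0.00821% of all 12176 genes did. At an unadjusted p under 0.05, 4 members were higher in KO, where 17.7% of all genes were, and 0 were lower, where 1.07% were. The 4 members were 8.51% of those tested, a share below the background. KO and WT values did not overlap, with KO higher, for 2 members (*Psmd13* and the lid gene *Psmd6*), where 9.55% of all genes behaved so. The reverse held for 0 members and 0.673% of genes. Under median-of-ratios scaling the median of all genes moved from 0.16 to 0.00, that of the non-ATPase genes to 0.08 and that of the 14 constitutive core genes from 0.06 to -0.11. The median over all members was 0.14 with all mice, 0.05 without male WT 1 and 0.23 without male WT 2. In the fit without male WT 2 the median over all genes was 0.20. Within the 5 male libraries that share a name prefix (2 WT and 3 KO), the mean log2 value was 0.22 higher in KO for the non-ATPase genes, 0.10 higher for the core genes and 0.26 higher for the immunoproteasome genes. Without male WT 2 the immunoproteasome median was 0.41 and that of the 17 regulatory genes 0.28, with all genes at 0.20. The order of the classes thus rested on this library.

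The 5 further members with the smallest p in males were all higher in KO mice. *Psmf1* was at 6.77, 8.09, 7.31 and 9.05 TPM in WT and at 8.61, 12.1, 9.52 and 9.23 TPM in KO mice (0.31 ± 0.13, limma adjusted p = 0.248). *Psmd13* was at 30.8, 41.9, 37.4 and 36.1 TPM in WT and at 43.2, 43.3, 44.2 and 42.5 TPM in KO mice (0.25 ± 0.10, limma adjusted p = 0.253). The KO mice lay close together, just above male WT 2. *Psmd3*, a lid gene, was at 30.4, 44.8, 35.7 and 39.3 TPM in WT and at 43.6, 51.2, 44.2 and 45.3 TPM in KO mice (0.30 ± 0.13). *Psmd1* was at 22.8, 22.7, 26.7 and 29.0 TPM in WT and at 25.9, 32.6, 31.9 and 33.5 TPM in KO mice (0.29 ± 0.12). *Psmd7*, another lid gene, was at 26.5, 34.96, 31.9 and 35.9 TPM in WT and at 34.7, 40.5, 39.3 and 38.8 TPM in KO mice (0.25 ± 0.12). For the last 3 genes the highest WT mouse lay above the lowest KO mouse, and the limma adjusted p ranged from 0.256 to 0.281.

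In females the class medians were ordered otherwise with all mice in the fit. That order was not tested as such, and without male WT 2 the immunoproteasome median was the highest in males too (0.41, with all genes at 0.20). With the library-name prefix as a covariate it was the highest in both sexes (0.24 in males and 0.25 in females). In males this fit rests on the prefix shared by male WT 3, male WT 4 and male KO 2 to 4. It thus also leaves out male WT 2 and is no separate check. In females it takes nothing from female KO 2 and female KO 4, whose prefixes no female WT mouse shared. With all mice in the fit, the median female difference was 0.48 for the immunoproteasome, 0.25 for the ATPases, 0.24 for the beta ring, 0.18 for the alpha ring and 0.15 for assembly genes, against 0.10 over all genes. It was 0.09 for the 11 non-ATPase genes and 0.04 for activators and inhibitor. All 14 constitutive core genes had a positive difference (median 0.22), as did 62.7% of all genes, and 13 were positive under median-of-ratios scaling, where their median was 0.12. With the library-name prefix as a covariate the core median was 0.0424, that of the alpha ring 0.0143, that of the immunoproteasome 0.25 and that of the non-ATPase genes -0.0612. Within the prefix with 1 mouse of each genotype the core genes differed by -0.0071. Of 48 members tested, 0 passed an adjusted p of 0.05 with limma, where 0% of all 12141 genes did. At an unadjusted p under 0.05, 3 members were higher in KO, where 11.6% of genes were, and 1 was lower, where 5.45% were. Without overlap between groups, 1 member was higher in KO (background 4.89%) and 1 was lower (background 3.19%). The median over all members was 0.18 with all mice, 0.08 without female WT 4, the library with the abundant unmatched transcript, and 0.28 without female WT 1.

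*Psmc2*, an ATPase of the base, was at 16.1, 25.3, 21.1 and 17.7 TPM in female WT and at 33.4, 30.1, 26.4 and 36.1 TPM in female KO mice. The lowest KO value exceeded the highest WT value, and the means differed by 0.65 ± 0.17 on the log2 scale (limma adjusted p = 0.231). In males *Psmc2* was at 22.5, 32.7, 16.7 and 18.1 TPM in WT and at 33.3, 25.4, 15.8 and 31.4 TPM in KO mice, which overlapped over nearly the whole range. *Psme4* went the other way, at 15.6, 16.1, 14.1 and 13.6 TPM in female WT and at 8.76, 11.1, 11.6 and 11.5 TPM in female KO mice. The highest KO value was below the lowest WT value (-0.45 ± 0.13, limma adjusted p = 0.231). *Psmg3*, a chaperone of alpha-ring assembly, was at 10.2, 6.34, 9.02 and 4.35 TPM in female WT and at 13.6, 11.4, 9.37 and 13.4 TPM in female KO mice (0.69 ± 0.25, limma adjusted p = 0.243). A single WT mouse, female WT 1, lay above the lowest KO mouse. *Psmd4*, a ubiquitin receptor of the regulatory particle, was at 76.3, 53.6, 65.6 and 52.3 TPM in female WT and at 112, 67.9, 64.1 and 101 TPM in female KO mice (0.45 ± 0.22, limma adjusted p = 0.324). *Psmc3*, another base ATPase, was at 49.5, 43.3, 48.5 and 36.8 TPM in female WT and at 57.4, 49.4, 50.1 and 58.3 TPM in female KO mice (0.28 ± 0.14, limma adjusted p = 0.339). For *Psmd4* and *Psmc3* the highest WT mouse was again female WT 1.

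**Figure D3:**
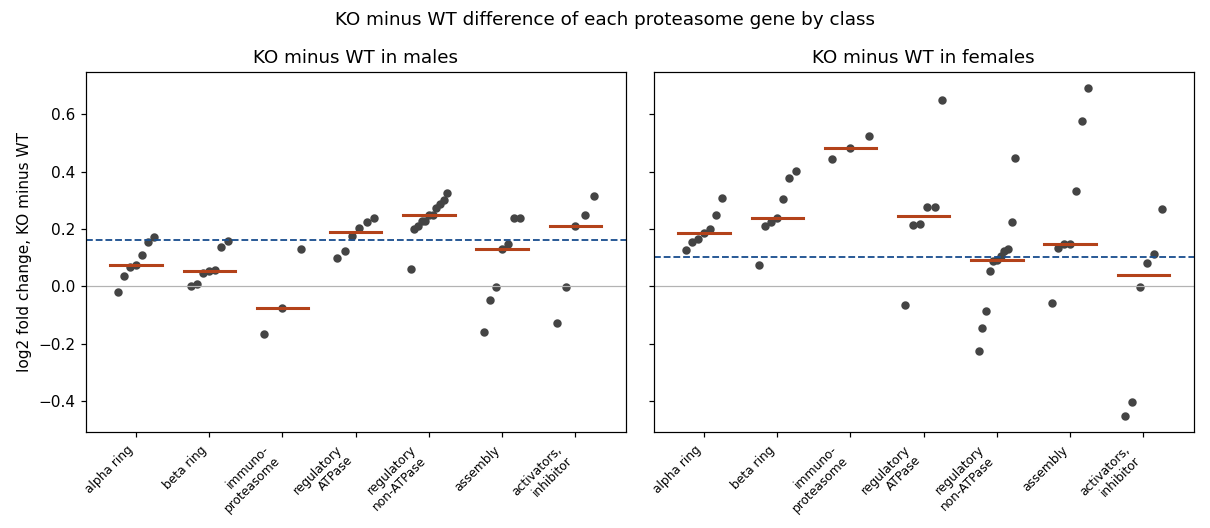
Log2 fold change, KO minus WT, of each tested proteasome gene by class in males (left) and females (right); points are genes, red bars class medians, and the dashed line is the median over all genes tested (0.16 in males, 0.10 in females). In males 10 of 11 regulatory non-ATPase genes lie above the dashed line and 13 of 14 core genes below it, and in females 13 of 14 core genes and all 3 immunoproteasome genes lie above it.

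The test of the difference between the sexes called 0 members, as it called 0% of all 12210 genes with limma. At an unadjusted p under 0.05 the KO difference was more positive in females for 1 of 47 members, where 2.51% of genes were, and more negative in females for 2, where 11.7% were. *Psme4* had the smallest p, with a difference of -0.66 ± 0.17 (limma adjusted p = 0.216). Its male values were 13.6, 13.01, 14.8 and 16.1 TPM in WT and 13.9, 17.1, 18.8 and 17.3 TPM in KO mice, so that the KO mean was above the WT mean in males and below it in females. *Psmd1*, given above for males, was at 23.6, 25.9, 25.04 and 19.7 TPM in female WT and at 18.1, 22.7, 20.1 and 19.3 TPM in female KO mice, which gave -0.51 ± 0.17 (limma adjusted p = 0.225). *Psmg3* was at 9.41, 14.2, 8.23 and 10.1 TPM in male WT and at 9.94, 10.49, 8.85 and 7.58 TPM in male KO mice, and its difference between the sexes was 0.85 ± 0.32 (limma adjusted p = 0.265). *Psmd8* was at 105, 139, 131 and 176 TPM in male WT and at 147, 189, 178 and 169 TPM in male KO mice, with female WT at 128, 101, 105 and 101 TPM and female KO at 99.1, 104, 110 and 94.9 TPM (-0.41 ± 0.20). *Psmd14*, the lid deubiquitinase, was at 29.0, 31.1, 35.6 and 34.4 TPM in male WT and at 31.1, 42.5, 39.7 and 38.1 TPM in male KO mice. In females *Psmd14* was at 30.1, 32.7, 28.1 and 23.5 TPM in WT and at 22.2, 27.9, 27.6 and 25.4 TPM in KO mice (-0.36 ± 0.18, limma adjusted p = 0.391).

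By class, the difference between the sexes was negative for 10 of the 11 non-ATPase genes (median -0.15), where 57.1% of all genes were. It was positive for 12 of the 14 constitutive core genes (median 0.17), where 42.9% of all genes were, and the median over all genes was -0.06. Without male WT 2 it was positive for 10 core genes (median 0.09) and negative for 10 non-ATPase genes (median -0.21). For the immunoproteasome genes the difference with all mice was 0.60 (*Psmb8*), 0.65 (*Psmb9*) and 0.31 (*Psmb10*), with limma adjusted p of 0.639, 0.577 and 0.718. Without male WT 2 their median was 0.11, with all genes at -0.11. With the prefix as a covariate the medians of the difference were -0.0218 for the core genes, -0.0722 for the alpha ring, -0.0846 for all members, 0.0831 for the immunoproteasome and -0.23 for the non-ATPase genes. That of the assembly genes was -0.18 with the prefix and 0.09 without it. The medians of the core genes, the alpha ring, the assembly genes and all members thus changed direction. With coding transcripts the difference was 0.22 for *Psmb8*, 1.05 for *Psmb9* and 0.37 for *Psmb10*. Within each library, the mean log2 level of the 14 core genes exceeded that of the 17 regulatory genes by 0.85 ± 0.088 (SD, n = 4) in WT and 0.70 ± 0.069 in KO males, and by 0.78 ± 0.12 in WT and 0.87 ± 0.082 in KO females. The gap was thus smaller in KO than in WT males and larger in KO than in WT females, with overlapping ranges in both sexes.

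**Figure D4:**
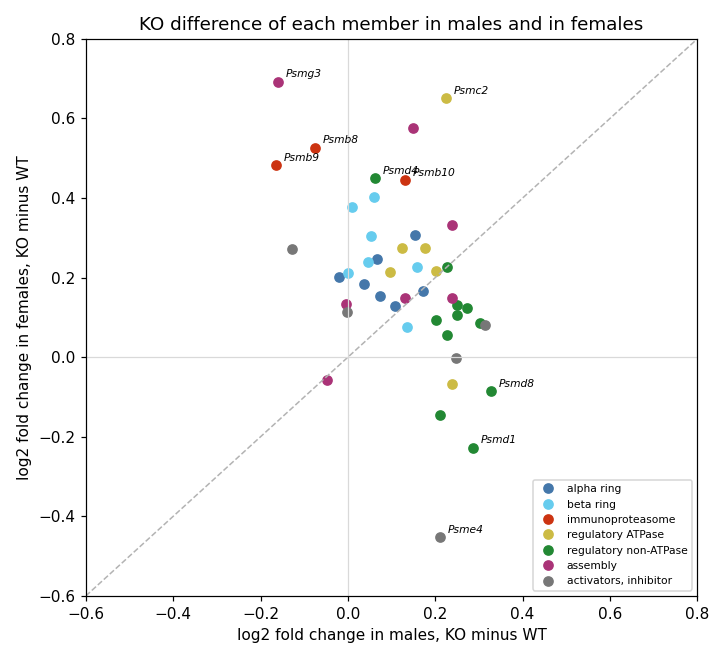
Log2 fold change, KO minus WT, of each tested proteasome gene in males (horizontal) and females (vertical), coloured by class; the dashed diagonal marks equal differences in both sexes. The 3 immunoproteasome genes, *Psmg3* and *Psmc2* lie above the diagonal, and *Psme4*, *Psmd1* and *Psmd8* lie below it.

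Over both sexes together, with 8 mice of each genotype, 0 of 47 members passed with limma, where 2.93% of all 12210 genes did. At an unadjusted p under 0.05, 5 members were higher in KO, where 21.4% of genes were, and 0 were lower, where 2.58% were. These were *Psmc2* (0.44 ± 0.17, limma adjusted p = 0.136), *Psmc3* (0.23 ± 0.091), *Psmd13* (0.18 ± 0.076), *Psmd7* (0.19 ± 0.084) and *Psmd5* (0.28 ± 0.13, limma adjusted p = 0.198), a chaperone of the base. In males *Psmd5* was at 11.04, 12.4, 11.7 and 12.8 TPM in WT and at 10.9, 17.98, 13.6 and 15.2 TPM in KO mice, and in females at 12.2, 11.1, 13.3 and 7.06 TPM in WT and 11.6, 16.8, 12.0 and 14.3 TPM in KO mice. The median over the members was 0.16 and over all genes 0.13. Without male WT 2, *Psmc2* passed the adjusted threshold (0.53, against a median of 0.15 over all genes), and the count of all genes called moved from 358 to 1055. For *Psmc2* this library was the highest male WT mouse (32.7 TPM), so leaving it out could only raise that difference. The pass therefore cannot be read as support. The immunoproteasome genes were at 0.23, 0.16 and 0.29 with all mice and at 0.47, 0.40 and 0.43 without that library (limma adjusted p = 0.101, 0.0948 and 0.0552, where 1055 of 12189 genes passed). That library was singled out as the male WT mouse with the highest values of these genes. Leaving it out could only raise their differences, so that these p-values cannot be read as support. With coding transcripts *Psmb10* was at 0.0094 and *Psmb9* at 0.23.

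**Figure D5:**
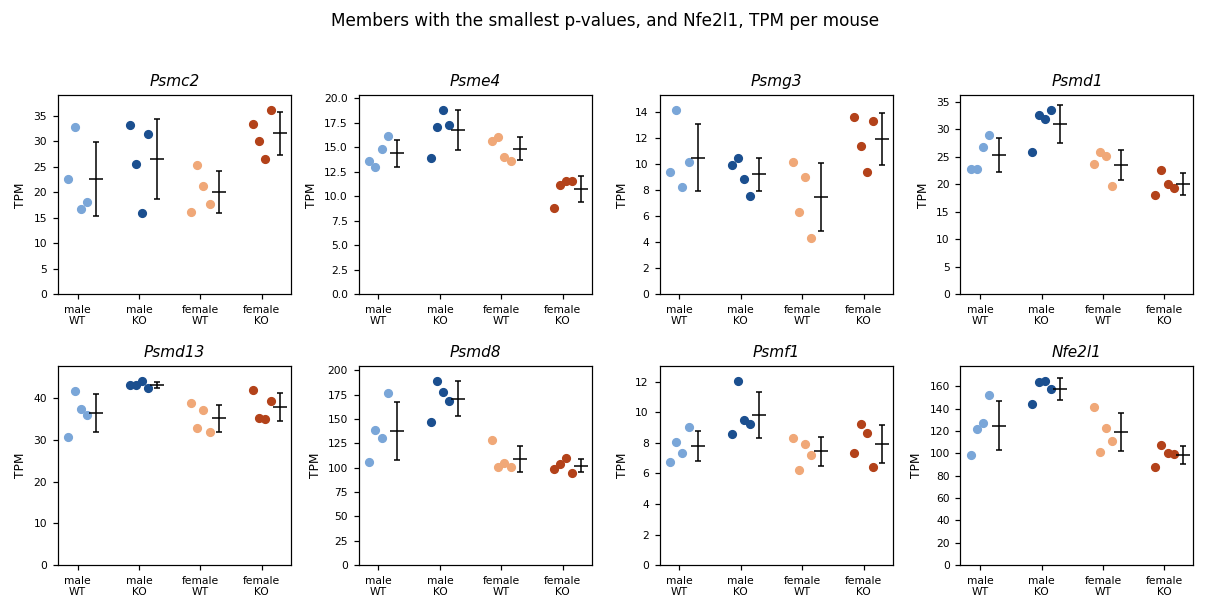
TPM per mouse of 7 members with small p-values in a comparison and of *Nfe2l1*; points are mice, and bars are the mean and SD of 4 mice, on linear axes from 0. In females the KO mice lie above all WT mice for *Psmc2* and below them for *Psme4*, whereas the male groups overlap in both genes.

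Between female and male WT mice, 0 of 48 members passed with limma, where 0.0664% of 12042 genes did. At an unadjusted p under 0.05, 0 members were higher in females, where 1.25% of genes were, and 0 were lower, where 2.17% were. The difference was negative for 44 of 48 members, with a median of -0.18, against -0.05 over all genes, of which 62.3% were negative. Female and male WT libraries shared no library-name prefix, so that sex and prefix cannot be told apart here. The 5 smallest p belonged to *Psmg3* (-0.50 ± 0.26), *Psmd4* (-0.35 ± 0.18), *Psmd8* (-0.32 ± 0.18), *Psmd12* (-0.25 ± 0.14) and *Psmd10* (-0.29 ± 0.17), all with a limma adjusted p of 0.9997. Over the members the median was -0.09 without female WT 4 and -0.28 without female WT 1.

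Partners of the proteasome were followed as a list of 25 genes, of which 24 were tested. In males 21 were higher in KO (median 0.24, against 0.16 over all genes, of which 79.9% were higher). At an unadjusted p under 0.05, 7 were higher, where 17.7% of all genes were, and at an adjusted p of 0.05 with limma 0 were. Among the genes with small p were *Uchl5* (0.31 ± 0.11), the gene of a deubiquitinase of the regulatory particle, and *Txnl1* (0.31 ± 0.12), which encodes a thioredoxin-like protein bound to it. In females the median was 0.11, against 0.10 over all genes, with 2 genes higher (background 11.6%) and 1 lower (background 5.45%) at an unadjusted p under 0.05. *Ube3c*, a ubiquitin ligase of the proteasome, was lower in every female KO than in every female WT mouse (7.82 ± 1.05 against 10.0 ± 0.535 TPM, SD, n = 4), as were 3.19% of all genes. *Nfe2l1* was at 98.1, 121, 127 and 152 TPM in male WT and at 144, 164, 165 and 157 TPM in male KO mice. In females it was at 141, 101, 122 and 111 TPM in WT and at 88.0, 107, 100 and 99.1 TPM in KO mice. The difference of its KO effect between the sexes was -0.61 ± 0.19 (limma adjusted p = 0.218), and that of *Ube3c* was -0.55 ± 0.16 (limma adjusted p = 0.216).

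Because leukocytes express the immunoproteasome, their markers are given beside it. Of 16 leukocyte markers 10 were tested, and none was at 0 TPM in any library, although the lymphocyte markers *Cd3e*, *Cd8a*, *Cd4* and *Ms4a1* averaged 0.194, 0.145, 0.236 and 0.141 TPM. The summed TPM of the 10 was 38.7 to 77.0 in male WT and 85.5 to 124 in male KO mice, and 44.1 to 90.6 in female WT and 56.8 to 86.2 in female KO mice. This sum, of which *Lyz2* is the main part, did not overlap between the male genotypes. Singly, 8 of the 10 markers were higher in male KO mice and 2 were lower, against 79.9% of all genes higher. For 4 markers every KO value lay above every WT value, where 9.55% of all genes behaved so. Of the 10, *Laptm5*, *Lyz2* and *Cd68* had the smallest p (differences of 1.10, 1.12 and 1.19), and the neutrophil gene *S100a9* was at -0.88. In males the median difference of the 10 markers was 0.61 and in females 0.06, with all genes at 0.16 and 0.10. In male WT 2 the sum was 72.8, within the range of the other male WT mice, but 6 of the 16 markers were at their highest of all 16 libraries there. These were the lymphocyte genes *Cd3e* (0.857 TPM, at most 0.300 TPM elsewhere), *Nkg7* (1.74 and at most 0.889 TPM), *Cd79a* (1.33 and at most 1.12 TPM) and *Ms4a1* (0.262 and at most 0.225 TPM). The others were *Cd52* (10.8 and at most 8.73 TPM) and *Coro1a* (6.50 and at most 6.40 TPM). The lymphocyte genes *Cd4* and *Cd8a* were at 0.178 and 0.315 TPM in male WT 2 and highest in female KO 2 (0.444 and 0.393 TPM). Of the 16 genes of class I presentation and interferon response, 9 were also at their highest in male WT 2, and their summed TPM was 1356 in male WT 2 and 692 to 1078 in the other male WT mice. The summed TPM of the proteasome members was highest in male WT 2 as well (2790). How many of all genes were at their highest in this library was not counted, so that both counts lack a background. The median KO difference of the class I and interferon genes was -0.04 in males, where *Irf8* had the smallest p (0.72 ± 0.17), and 0.18 in females. *Ifit1* was higher in every female KO than in every female WT mouse (2.63 ± 0.358 against 1.61 ± 0.291 TPM, SD, n = 4), as were 4.89% of all genes. Muscle genes also varied between libraries (*Acta1* 0.207 to 1237 TPM), with a median KO difference of 0.39 in males and 1.46 in females over 5 genes, and the median over 7 brown adipocyte markers was -0.09 and 0.22. In bulk tissue, more cells of a type and more RNA per cell cannot be told apart, and the part of these cells and responses in the proteasome values was not tested.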

How the data were processed

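Bulk RNA sequencing libraries from BAT of 16 mice were used, grouped by sex and genotype from their labels. The authors made stranded mRNA libraries, quantified reads with kallisto 0.46.2 (build GRCm39 in the submitters' processing notes) and deposited transcript-level TPM, scaled to a total of 1000000 per library. The authors tested expression with DESeq2. TPM are not counts, so that test was not used here, and depth is unknown. Transcripts were matched without version to GENCODE mouse M21 (135051 matched, 2387 did not) and summed by symbol, which gave 49066 symbols.

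log2(TPM + 0.5) was fitted with limma 3.58.1 in R 4.3.3 (eBayes with trend) for all genes whose mean was at least 1 TPM in the fitted libraries, with Benjamini-Hochberg adjustment over all of them and a threshold of 0.05. The scripts were tested on simulated data. Single values were compared by exact two-sided permutation tests. Replicates were separate mice.

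Named with values in each mouse were *Psmb5* to *Psmb10*, *Psme1*, *Psme2* and up to 5 further members with the smallest p per comparison, and up to 3 genes of each other list; *Tap1*, *Psmd6* and *Nfe2l1* in males were added after values were seen. Members, lists and tests were chosen with earlier results of these data known. Alternatives were pseudocounts of 1 and 0.1, no minimum or a minimum of 5 TPM, 2 other scalings, no trend, the library-name prefix, the replicate number as a block, all libraries in a single fit and each library left out; coding transcripts alone and scaling to matched nuclear transcripts were added after the data were seen. *Paaf1*, on the partner list, was not analysed here. A further gene of that list is not reported here by name. Promoter windows of *Psma8*, *Psmb1*, *Psmb2*, *Psmb7*, *Psmc3*, *Psmd3*, *Psmd7* and *Psmg2* were not used here.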

Additional observations from a re-analysis of the deposited data

Results flagged for a closer look

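In 8 of the 92 groups of 4 mice examined (23 named genes in 4 groups), a single mouse stood apart from the other 3 by Dixon's test on TPM, at a level that chance reaches in about 1 of 20 groups. Male WT 2 was the high mouse for *Psmb8* (36.2 TPM), *Psmb9* (22.6 TPM) and *Psme1* (82.2 TPM). Male KO 2 was the high mouse for *Psmb8* (15.2 TPM), *Psmb5* (131 TPM) and *Psmd4* (87.1 TPM). Female KO 1 was the low mouse for *Psme4* (8.76 TPM), and female WT 1 the high mouse for *Psmd8* (128 TPM).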

How the results depend on the processing

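No alternative made a member pass the adjusted threshold with limma, except that *Psmc2* passed over both sexes without male WT 2. That library was the highest male WT mouse for *Psmc2*, so leaving it out could only raise the difference. The count of all genes called in males, 1, became 2 with a pseudocount of 0.1, 0 with no TPM minimum, 3 with median-of-ratios scaling, 12 without mitochondrial transcripts or per matched nuclear transcripts, 6 with the library-name prefix, 38 with all 16 libraries in 1 fit and 18 with coding transcripts. In females it went from 0 to 8 with the prefix and 5 with all libraries in 1 fit. Over both sexes, 358 became 54 with no minimum, 177 with a minimum of 5 TPM, 12 with the prefix, 719 with coding transcripts and 543 per matched nuclear transcripts. For the difference between the sexes 0 became 1 without trend, and between WT mice 8 became 3 with a minimum of 5 TPM and 4 with coding transcripts. The prefix could not be fitted between WT mice. With a replicate block the counts were 0 in males and 1 in females. Same-numbered mice showed no clear joint deviation (correlations of -0.11 to 0.35), and 2 of 8 matched best with their own number. With so few mice this cannot exclude a pairing, and the main fits used none.

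Male differences that changed sign were those of *Psmb10* (-0.036), *Psmb5* (-0.0105), *Psmb6* (-0.1105) and *Psmb7* (-0.0331) under median-of-ratios scaling, *Psmb6* without mitochondrial transcripts (-0.047) or per matched nuclear transcripts (-0.0473), *Psmb8* (0.1972), *Psmb9* (0.3552), *Psme1* (0.1343) and *Psme2* (0.0325) with the prefix, and *Psmb8* (0.1183), *Psmb10* (-0.1732) and *Psme1* (3e-04) with coding transcripts. Female ones were *Psmb7* (-0.0211, -0.0474 and -0.0783 with median-of-ratios scaling, the prefix and per matched nuclear transcripts) and *Psme1* (-0.1161 with the prefix, -0.0083 with coding transcripts and -0.0403 per matched nuclear transcripts). The cause was not tested.

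With each mouse left out in turn, the genes called ranged from 0 to 5 in males, 0 to 9 in females, 31 to 1055 over both sexes, 0 to 3 for the difference and 5 to 11 between WT mice, and the members called from 0 to 1 over both sexes. Male values ranged from -0.39 to 0.41 for *Psmb8*, -0.37 to 0.31 for *Psmb9*, -0.0674 to 0.42 for *Psmb10*, -0.0255 to 0.18 for *Psmb6*, -0.0862 to 0.17 for *Psme1* and -0.22 to 0.0429 for *Psme2*. Female values ranged from -0.0541 to 0.18 for *Psmb7* and -0.0116 to 0.22 for *Psme1*, and the WT sex difference from -0.67 to 0.13 for *Psmb8* and -0.49 to 0.19 for *Psmb9*. Depth is unknown from TPM, and with 4 mice in a group only large differences could be told from the spread.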
